A study of Arabidopsis thaliana with 2 samples.

Results

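In the CG table of the line called cen against Col, 9301 regions lay on the chromosome arms at places where the table of ddb2-3 against Col listed nothing, and they are called cen-only regions here. They were chosen by the deposited CG differences of both comparisons, as rows of the cen CG table shorter than 500 bp, with a midpoint more than 3 Mb from 15, 3.6, 14, 4 and 12 Mb on chromosomes 1 to 5, and with no ddb2-3 CG row within 200 bp of either end. They made up 28.3% of the 32840 nuclear CG regions of the cen table and 37.1% of the 25042 arm regions under the length limit. The other 15741 arm regions of that length had a ddb2-3 region within 200 bp and are set beside them below, as are the 7539 arm regions chosen in the same way from the ddb2-3 table, called ddb2-3-only regions. Membership means that a difference was listed for cen and none for ddb2-3. The 2 lines were not compared with each other, and a difference just under the authors' limit in ddb2-3 would leave a place unlisted.

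The plants were Arabidopsis thaliana. No label describes the line called cen, so its genotype, age and tissue are not stated here. The ddb2-3 line carries the insertion DsLoxHs195_05H in DDB2, a gene of global genome repair whose product binds DNA damage, and Col is the wild type of both comparisons. The labels give 1 library each of ddb2-3 and Col, from whole seedlings grown in vitro for 10 days, in which all cell types were pooled. DNA was treated with bisulfite, which converts unmethylated cytosines, and sequenced.

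CG methylation on Arabidopsis arms is found mostly inside transcribed genes, where it is called gene body methylation. It is typical of long, constitutively expressed genes, is sparse near both gene ends, and occurs without the CHG and CHH methylation (H is any base but G) that accompanies CG methylation in transposons. The methyltransferase MET1 and the VIM proteins copy it to the new strand after replication, and copying errors are inherited, so that single CG sites gain and lose methylation between generations.

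The authors' tables give 1 methylation difference per region, in windows of 100 bp, without levels or reads per library and without p-values. There was 1 library per line, so no test between lines was possible, depth is unknown, and the 95% Wilson intervals given with shares cover counting error only. The tables do not state which line was subtracted. At 733 arm regions that both tables hold at the same place with the same value (to within 1.5e-06), the sign was positive at 723 and negative at 10. Identical values mean the same level in cen and ddb2-3, which is likeliest where both were at 0, so a positive value was read as Col above the other line. Every higher and lower here rests on that inference.

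Regions listed only for cen were more often higher than lower in cen, and the excess lay among small differences. Of the 9301 regions, 5481 were higher and 3820 lower in cen than in Col, or 58.9% higher (57.9 to 59.9). The sign and size come from the comparison that chose the regions and are given as a description. Differences of 0.1 to 0.15 were higher in cen at 71.3% of 1856 regions (69.2 to 73.3), those of 0.15 to 0.2 at 62.8% (60.7 to 64.9) and those of 0.2 to 0.3 at 57.1% (55.2 to 58.9). At 0.3 to 0.4 the regions were evenly split, with 704 higher and 702 lower. At 0.7 and above 42 were higher and 50 lower. The median absolute difference was 0.207 for higher and 0.249 for lower regions.

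The other arm regions of the cen table did not show this order. With a ddb2-3 region within 200 bp, 51.3% of cen regions were higher (50.5 to 52.1), and 44.1% of those with a difference of 0.1 to 0.15 were. Of the ddb2-3-only regions, 44.1% (42.9 to 45.2) were higher in ddb2-3 than in Col, and 48.8% of those of 0.1 to 0.15 were. Their share also fell with size at first, to 45.4% at 0.15 to 0.2 and 41.3% at 0.2 to 0.3. In the classes from 0.3 to 0.7 it was 44%, 39.8% and 41.9%, and at 0.7 and above 49.2% of 59 regions. The comparisons of cen and ddb2-3 share the Col library. Small differences were more frequent among the cen-only regions, where 58.4% reached 0.2 (57.4 to 59.4), against 70.5% (69.7 to 71.2) of the cen regions near a ddb2-3 region. Among ddb2-3-only regions 58.5% (57.3 to 59.6) reached 0.2.

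**Figure D1:**
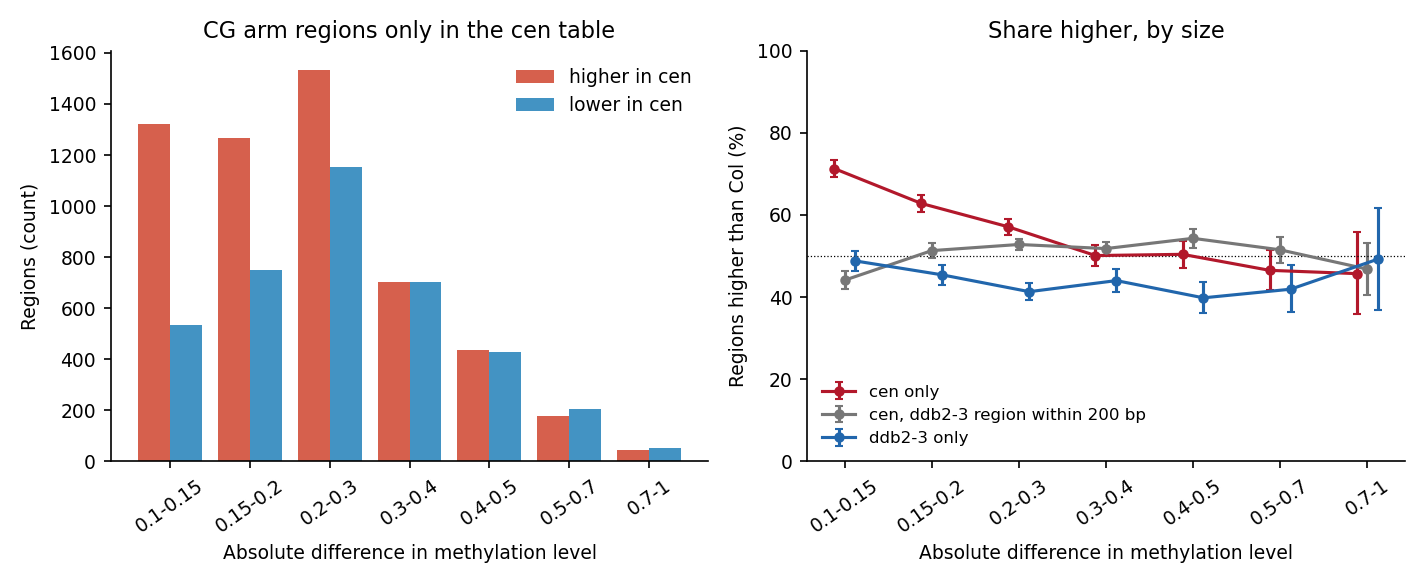
Left, number of cen-only CG arm regions by absolute difference in methylation level, for regions higher (red) and lower (blue) in cen than in Col. Right, share of regions higher than Col in % in the same classes for cen-only regions, cen regions with a ddb2-3 region within 200 bp and ddb2-3-only regions, with 95% Wilson intervals; the cen-only share is 71.3% in the smallest class and 45.7% in the largest.

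Most cen-only regions were short. A single window of 100 bp made up 87.6% of them, and 680 spanned 200 bp, 430 spanned 300 bp and 39 spanned 400 bp. In all they covered 1095.8 kb. Single windows were fewer, at 78%, among cen regions with a ddb2-3 region within 200 bp. Among ddb2-3-only regions they made up 88.6%, so the short length was not particular to cen-only regions. At the length limit, the 39 members of 400 bp had differences between 0.147 and 0.624 with a median of 0.268, and the 27 regions of 500 bp or longer that otherwise met the rule had a median of 0.345. At the distance limit, 1138 members had the nearest ddb2-3 row 201 positions away, with a median difference of 0.237, and 1410 regions just outside the rule had one a single window nearer, with a median of 0.235. At the limit of the arms, the 114 members in the first 0.1 Mb had a median of 0.209 and the 105 regions just inside the pericentromere one of 0.203.

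The regions lay mainly inside protein-coding genes. By midpoint, 7959 of 9301 (85.6%, 84.8 to 86.3) lay in a protein-coding gene, 646 (6.95%) within 1 kb of one, 262 (2.82%) in a pseudogene, 62 (0.667%) in another RNA gene and 372 (4%) elsewhere. The share of arm sequence in each class was not worked out, so these shares are not set against an even spread over the arms. The protein-coding share was 92.7% (92.3 to 93.1) for cen regions with a ddb2-3 region within 200 bp and 84.5% (83.7 to 85.3) for ddb2-3-only regions. The farther a cen-only region lay from the ddb2-3 list, the less often it was in a gene. Of the 2775 regions with a ddb2-3 row 200 to 500 bp away 93.8% were in protein-coding genes, against 70.7% (67.5 to 73.6) of the 856 regions with none within 5000 bp. The share higher in cen was 55% (53.1 to 56.8) for the near class and 64.7% (61.5 to 67.8) for the far one.

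Outside protein-coding genes cen was more often the higher line. Regions in pseudogenes were higher in cen at 75.6% (70 to 80.4), regions flanking protein-coding genes (up to 1 kb away) at 73.1% (69.5 to 76.3) and regions elsewhere at 68.8% (63.9 to 73.3), against 56.7% (55.6 to 57.8) inside protein-coding genes. The order was also seen among differences of 0.3 or more, of which 62.8% (56.9 to 68.3) were higher outside protein-coding genes and 48.1% (46.1 to 50) inside them. It was not particular to cen-only regions at that size. Cen regions with a ddb2-3 region within 200 bp were higher at 62.9% (58.2 to 67.4) outside and 51.5% (50.2 to 52.8) inside. At 0.1 to 0.2 their shares were 46.4% and 48.6%. Among ddb2-3-only regions of all sizes the flanks ran the other way, with 38.3% (34.3 to 42.4) higher in ddb2-3, as did regions elsewhere, with 36.8% (32 to 41.9). Their pseudogene share, 44.4% (37.8 to 51.2), was close to the 45% inside protein-coding genes. At differences of 0.3 or more, ddb2-3-only regions were higher at 43.7% (37.5 to 50) outside and 42.4% (40.3 to 44.7) inside such genes.

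Within genes, cen-only regions were sparse near the gene ends. Of 6829 regions in a single protein-coding gene of 2 kb or more, 6.52% (5.96 to 7.13) lay within 0.1 of the gene length from either end, where an even spread would give 20%, and 27.2% (26.2 to 28.3) lay in the middle class of equal extent, beyond 0.4 of the length from both ends. The regions with a ddb2-3 region within 200 bp, at 5.94% and 25.8%, and the ddb2-3-only regions, at 6.97% and 27.3%, were spread alike. Direction followed the place too. Cen-only regions were higher in cen at 65.2% in the outermost class and at 51.9% in the middle. The ddb2-3-only regions fell as well, from 48.2% higher in ddb2-3 in the outermost class to 41.2% in the middle. Cen regions with a ddb2-3 region within 200 bp did not, at 47.7% and 51.7%.

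**Figure D2:**
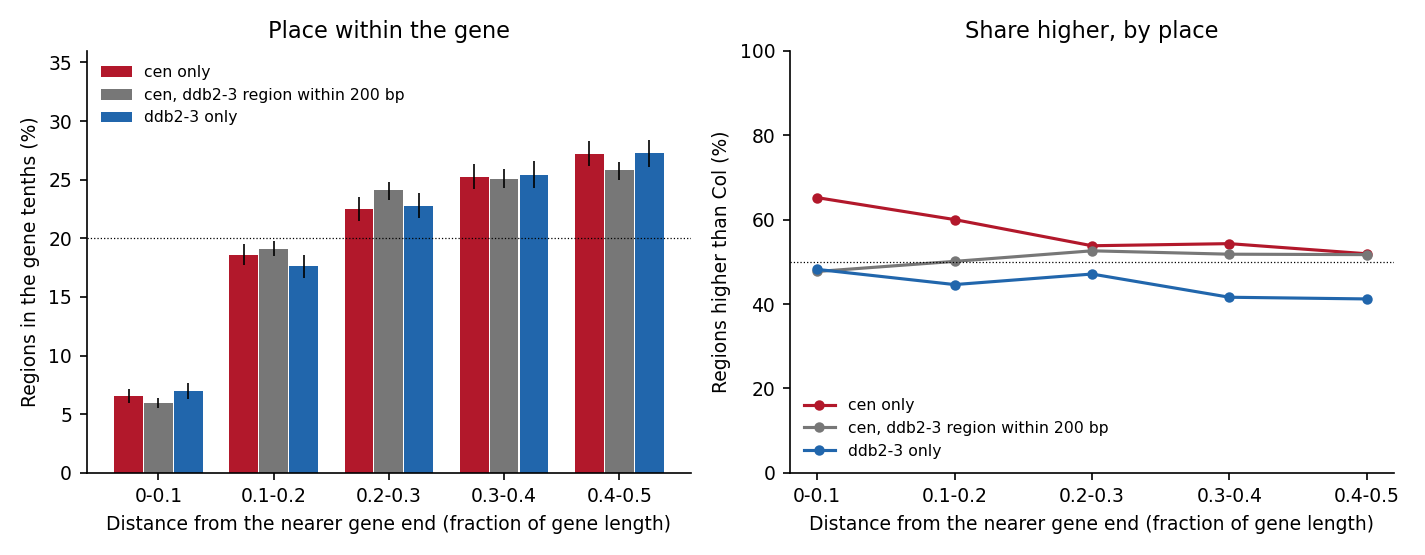
Left, share of regions in % by distance from the nearer gene end as a fraction of gene length, in protein-coding genes of 2 kb or more, with 95% Wilson intervals; the dotted line at 20% is an even spread, and all sets lie below it at the ends and above it in the middle. Right, share of those regions higher than Col in %; the cen-only share is 65.2% at the ends and 51.9% in the middle.

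A cen-only region lay in 5798 of the 24243 protein-coding genes of the arms, or 23.9%. A region higher in cen was held by 3883 genes (16%) and a region lower in cen by 2904 (12%). Long genes held them most often. The share was 3.91% (3.32 to 4.61) of genes under 1 kb, 11.1% (10.5 to 11.9) at 1 to 2 kb, 24.3% at 2 to 3 kb, 43.3% at 3 to 5 kb, 68.8% (66.2 to 71.4) at 5 to 8 kb and 86.8% (82.2 to 90.3) at 8 kb or more. Long genes also held more regions per length, with 6.21 per 100 kb in genes under 1 kb and 22.7 per 100 kb in genes of 8 kb or more. Direction moved with length: 68.3% of the regions in genes under 1 kb were higher in cen, and 47% of those in genes of 8 kb or more. Among differences of 0.3 or more the share higher was 53.5% (46.8 to 60) in genes under 2 kb and 43.6% (40.2 to 47.1) in genes of 5 kb or more. For ddb2-3-only regions of that size it was 49.3% (41.2 to 57.4) and 38.5% (34.8 to 42.4), so the order was not particular to cen. For cen regions with a ddb2-3 region within 200 bp it was 54.8% (50.5 to 59.1) and 51.4% (48.9 to 53.9).

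A single region was the rule for a gene. Of the 5798 genes, 4227 held 1 cen-only region, 1105 held 2 and 466 held 3 or more. Genes with 3 or more usually held both directions: 395 did, while 43 had higher regions alone and 28 lower regions alone. With both directions common in genes, 3 or more regions will often be mixed, and the counts were not tested. Regions of a gene within 200 bp of each other were always of opposite direction, as described below, which adds to the mixed genes. A ddb2-3 CG region lay elsewhere in 3804 of the 5798 genes (65.6%, 64.4 to 66.8), against 43.1% of all arm protein-coding genes. These shares were not matched for gene length. The genes with a cen-only region had a median length of 3.17 kb, against 2.11 kb for all arm protein-coding genes. The remaining 1994 genes had no ddb2-3 CG region in them at all.

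Neighbouring cen-only regions in a gene were about as often of opposite as of one direction. In the cen CG table regions of one direction were never closer than 201 positions, so the 305 neighbouring pairs in a gene that lay closer or overlapped were all of opposite direction. Of the 1942 pairs in a gene that lay farther apart, 1015 (52.3%, 50 to 54.5) had one direction, 554 of them both higher and 461 both lower. At 200 to 500 bp the share was 53.3% (49.3 to 57.3), at 500 to 1000 bp 52.7% (48.1 to 57.1), at 1000 to 2000 bp 48.8% (44.5 to 53) and beyond that 55.1% (49.9 to 60.1). Neighbours more than 200 bp apart that were not in the same gene shared a direction at 52.1% (50.9 to 53.2) over all distances and at 55.9% (48.7 to 62.9) at 200 to 1000 bp. With every pair counted the share within genes was 45.2%.

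**Figure D3:**
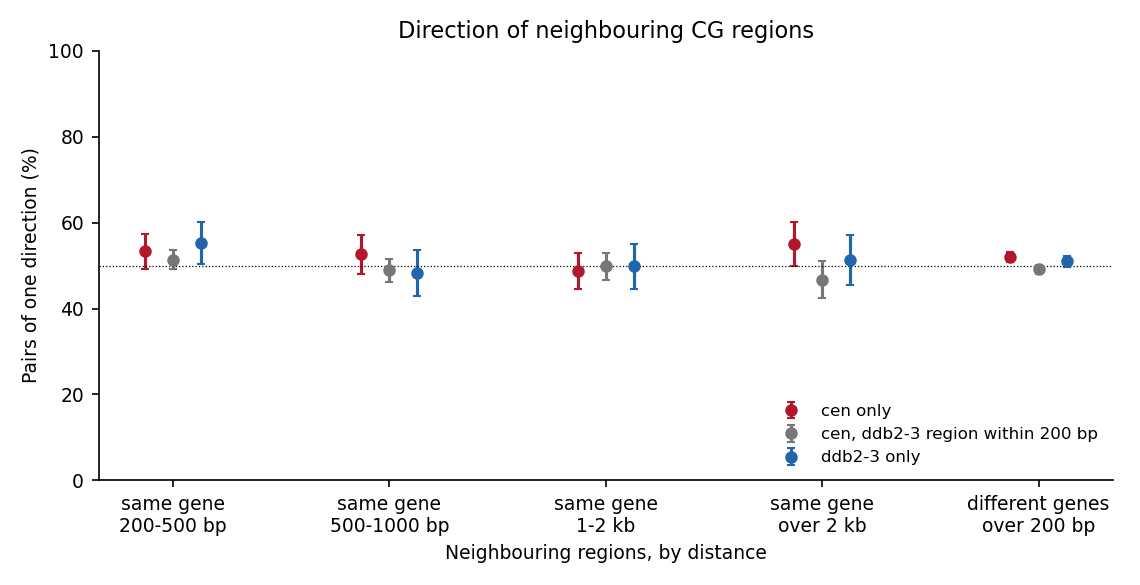
Share of neighbouring region pairs with one direction in %, for pairs in the same protein-coding gene in 4 distance classes and for all other pairs more than 200 bp apart as 1 class, for cen-only regions, cen regions with a ddb2-3 region within 200 bp and ddb2-3-only regions, with 95% Wilson intervals. The cen-only values within genes lie between 48.8% and 55.1%, and all other pairs together are at 52.1%.

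The widest differences were mostly single windows, in genes of many functions. A difference of 0.9 is possible only where one line is at 0.9 or above and the other at 0.1 or below. It was reached by 10 cen-only regions, 5 higher and 5 lower. They were 0.108% of cen-only regions. The share was alike, at 0.0953%, for cen regions with a ddb2-3 region within 200 bp and, at 0.106%, for ddb2-3-only regions. In the authors' deposited table, AT3G48710 was higher in cen by 0.947 at chromosome 3, 18043201 to 18043300 (TAIR10). POK, which encodes the vesicle tethering protein VPS52, was higher by 0.936 at chromosome 1, 26868301 to 26868400, as listed in the authors' deposited table. The same authors' deposited table gave AT4G30490 as higher by 0.930 and AT4G38120 by 0.910, and REF4, a subunit of the Mediator complex of transcription, by 0.903 at chromosome 2, 19678201 to 19678300. Behind these came AT3G49650 (0.890), RAD5 (0.881), of the tolerance of DNA damage at replication, the corepressor TPR2 (0.878), the chromatin remodeller SYD (0.870) and VCL1 (0.862), needed to form vacuoles, as listed in the authors' deposited table.

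Among lower regions the widest lay in the pseudogene AT1G27810, with the full difference of 1 at chromosome 1, 9686501 to 9686600, as listed in the authors' deposited table. AT2G41960 was lower by 0.921 at chromosome 2, 17516701 to 17516800, and AT1G07220 by 0.913 at chromosome 1, 2217701 to 2217800, as listed in the authors' deposited table. AT2G15240 (0.904), AT3G56120 (0.902), the U-box gene PUB49 (0.887), AT4G26940 (0.881), EX1 (0.855), of the chloroplast response to singlet oxygen, the phosphatase gene BSL2 (0.855) and AT1G22970 (0.854) followed, as listed in the authors' deposited table. All of these regions but the one in AT1G27810 lay in protein-coding genes, and the number of reads behind any of them is unknown. The region in AT1G07220 stood at the distance limit of the rule, with a ddb2-3 row 201 positions away. The one in AT2G15240 lay within 0.1 Mb of the limit of the arms.

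The 10 genes with the most cen-only regions, ties taken by locus name, were 7.19 to 26.2 kb long, and 9 of them held regions of both directions. AT1G67120, which encodes the ribosome assembly ATPase MDN1 and is 26.2 kb long, held 12, of which 3 were higher and 9 lower in cen, none by more than 0.325, as listed in the authors' deposited table. RGD3, a remodeller of the TATA-binding protein, held 3 higher and 5 lower regions, and AT4G36080, listed here as TRA1B, 5 higher and 3 lower. Each of AT1G02080 (3 higher, 4 lower), XI-B (4 higher, 3 lower), NUA (2 higher, 5 lower) and AT5G12400 (4 higher, 3 lower) held 7, and XI-1 (4 higher, 2 lower) and AT1G26170 (3 higher, 3 lower) held 6. The other 9 genes with 6 were 3.43 to 27.3 kb long and also held both directions. The 1 gene with a single direction was AT3G58640, 7.19 kb long, whose 7 regions were all lower in cen.

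AT3G58640 held no ddb2-3 CG region and no other cen CG region. Along chromosome 3 from 21687401 to 21692800 its regions were lower by 0.320, 0.249, 0.333, 0.155, 0.177, 0.462 and 0.40, as listed in the authors' deposited table, so lower regions of various sizes ran through most of the gene. The next largest sets of lower regions alone were those of 4 in AT2G17150, the NIN-like protein NLP1 (0.220 to 0.442), AT4G30790, the autophagy factor ATG11 (0.173 to 0.489), and AT5G15680 (0.15 to 0.379), as listed in the authors' deposited table. These 3 genes also held ddb2-3 CG regions. Another 24 genes held exactly 3 cen-only regions, all lower, and 18 of them also held a ddb2-3 CG region. The first of these by locus name was AT1G01920 (0.267 to 0.432), as listed in the authors' deposited table.

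Among genes with higher regions, LIG6, a DNA ligase gene, held 5 cen-only regions, all higher. From chromosome 1, 24887101 to 24891100, they were higher by 0.324, 0.161, 0.169, 0.220 and 0.104, as listed in the authors' deposited table. The gene was not higher throughout, since 3 other cen CG regions with a ddb2-3 region nearby included 2 lower ones, and both ddb2-3 regions there were lower. CRK13, a receptor-like kinase gene of only 2.97 kb, held 4 higher regions of 0.456, 0.101, 0.224 and 0.618, as listed in the authors' deposited table. AT1G10090 (0.213 to 0.542), SWEETIE (0.117 to 0.452) and DCL4, the dicer of trans-acting small RNAs (0.112 to 0.401), also held 4 each, all higher, as listed in the authors' deposited table. CRK13, AT1G10090, SWEETIE and DCL4 also held 1, 1, 9 and 10 ddb2-3 CG regions in that order. Other cen CG regions with a ddb2-3 region nearby numbered 1, 1, 8 and 4 there. The directions of these further regions are not given here.

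**Figure D4:**
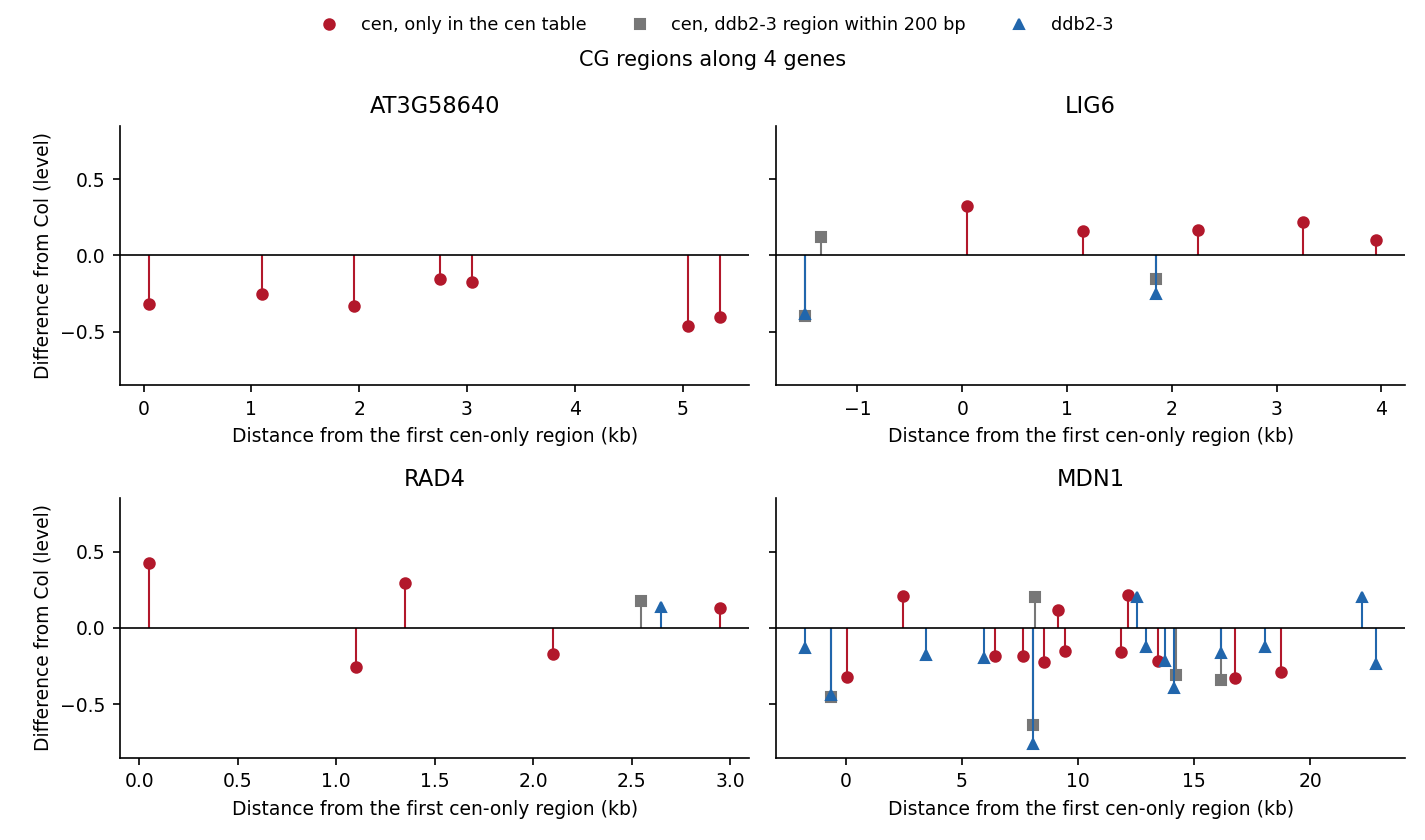
CG regions of both tables along AT3G58640, LIG6, RAD4 and MDN1, as the difference in methylation level from Col (above 0, higher than Col) against the distance in kb from the first cen-only region. Red circles are cen-only regions, grey squares other cen regions and blue triangles ddb2-3 regions; AT3G58640 has 7 red points, all below 0, and LIG6 has 5, all above 0.

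Without matching for gene length, 23.9% of all arm protein-coding genes held a cen-only region. Of 8 gene lists, 130 of 142 genes lay on the arms, and 68 of these held a cen-only region, likewise without matching. The genes that write, maintain or remove gene body methylation, or set the chromatin it lies in, held them at 12 of 24 (50%), with 9 genes holding a higher and 8 a lower region. Their median length was 5.23 kb. For each list, the share of all arm genes in the length class of each listed gene was averaged over the list, and for these genes it was 50.9%. DDM1, the remodeller that gives methyltransferases access to packed chromatin, was higher by 0.501 at one region and lower by 0.264 at another, as listed in the authors' deposited table. CMT3, the CHG methyltransferase, was higher by 0.479 at 1 region, and SUVH4, whose histone mark recruits it, was lower by 0.261 and 0.325, as listed in the authors' deposited table. Values given for list genes describe cen-only regions and not whole genes. CMT3 also held 1 other cen CG region with a ddb2-3 region nearby and 4 ddb2-3 CG regions. SUVH4 held 1 and 3, and DDM1 2 and 4. Many genes of the other lists held such regions too. EDM2, which keeps full-length transcripts of IBM1, had 1 region higher by 0.40 and 3 lower by 0.152 to 0.364, as listed in the authors' deposited table.

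IBM1, the demethylase that keeps that histone mark off genes, was lower by 0.271 and higher by 0.173, as listed in the authors' deposited table. PIE1, a remodeller that deposits the histone variant H2A.Z, was lower by 0.465 and 0.25, as listed in the authors' deposited table. Among the DNA glycosylases that remove methylated cytosine, ROS1 was lower by 0.416 and 0.257 and higher by 0.161 and 0.242, DME was lower by 0.470 and higher by 0.206, and DML2 was higher by 0.348 and 0.168, as listed in the authors' deposited table. PIE1 also held 4 other cen CG regions with a ddb2-3 region nearby and 3 ddb2-3 CG regions. ROS1 held 4 and 4, and DME 5 and 6. VIM2 and VIM3 had 1 higher region each, of 0.259 and 0.174, as listed in the authors' deposited table. VIM2 held no ddb2-3 CG region, and VIM3 held 2. VIM genes have close relatives to which reads may also map. IBM2, which acts with EDM2, was lower by 0.229, as listed in the authors' deposited table, and MET1 held no cen-only region.

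In the list headed global genome repair, 9 of 17 arm genes (52.9%) held a cen-only region, 6 a higher and 5 a lower one. The median length was 3.56 kb, and 44.1% of all arm genes of the same length classes held one. The list is wider than its heading, since it also holds CSA-1, CHR8 and the photolyase genes UVR2 and UVR3. RAD4, whose product recognises distorted DNA, as DDB2 does, held 5 in alternating directions. Along chromosome 5 from 5456301 to 5459300 it was higher by 0.426, lower by 0.253, higher by 0.292, lower by 0.173 and higher by 0.131, as listed in the authors' deposited table. The regions of 0.253 and 0.292 lay within 200 bp of each other, where all neighbouring cen-only pairs in a gene were of opposite direction. CHR8 held 2 lower regions, of 0.177 and 0.143, and 2 higher, of 0.201 and 0.289, as listed in the authors' deposited table. CUL4 (0.356), RAD23D (0.326), UVH6 (0.285) and RAD23C (0.12) had 1 higher region each, and DDB1B (0.346), UVH3 (0.246) and CSA-1 (0.207) 1 lower region each, as listed in the authors' deposited table. CUL4 also held 3 other cen CG regions with a ddb2-3 region nearby and 4 ddb2-3 CG regions. DDB1B held 4 and 5, and UVH6 held none of either kind. DDB2 and CEN2 held no cen-only region.

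Myosins, the motors of organelle movement, held regions at 14 of 17 genes (82.4%, median length 10.1 kb), 20 higher and 21 lower, against 83.6% of all arm genes of the same length classes. XI-I held 1 higher region, of 0.235, and 4 lower, up to 0.519, and XI-A 3 lower and no higher one, as listed in the authors' deposited table. HECT ubiquitin ligases and the PIKK family of kinase-related proteins held them at 10 of 12 (83.3%, 12.2 kb), 20 higher and 20 lower, with 3 of each in UPL2 and in the DNA damage kinase ATM. All arm genes of their length classes held one at 80.2%. The listed genes of the exocyst, which tethers vesicles to the plasma membrane, held them at 8 of 9 (88.9%, 6.06 kb), with 2 higher and 2 lower in SEC5A. This was above the 57.4% of all arm genes of their length classes, over 9 genes and without a test. The list is partial: it names only SEC3, SEC5, SEC6, SEC8, SEC10, SEC15 and EXO84 genes and does not cover every exocyst subunit.

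Nuclear pore genes held regions at 12 of 23 (52.2%, median length 5 kb), 12 higher and 15 lower in cen, against 53.9% of all arm genes of the same length classes. NUA, the pore anchor, was lower by up to 0.576, ALADIN was lower by 0.531 and NUP205 was higher by up to 0.535, as listed in the authors' deposited table. At the short end, light-harvesting genes, which are strongly and not constitutively expressed, held regions at 2 of 14 (14.3%, 1.41 kb), against 11.1% of all arm genes of their length class. They were LHCA2, lower by 0.105 and higher by 0.219, and LHCB2.3, higher by 0.110, as listed in the authors' deposited table. Of the 14 RNA polymerase II genes (median 1.71 kb) only NRPB1 held any, 1 higher by 0.244 and 2 lower by 0.452 and 0.328, as listed in the authors' deposited table. All arm genes of their length classes held one at 20.3%.

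**Figure D5:**
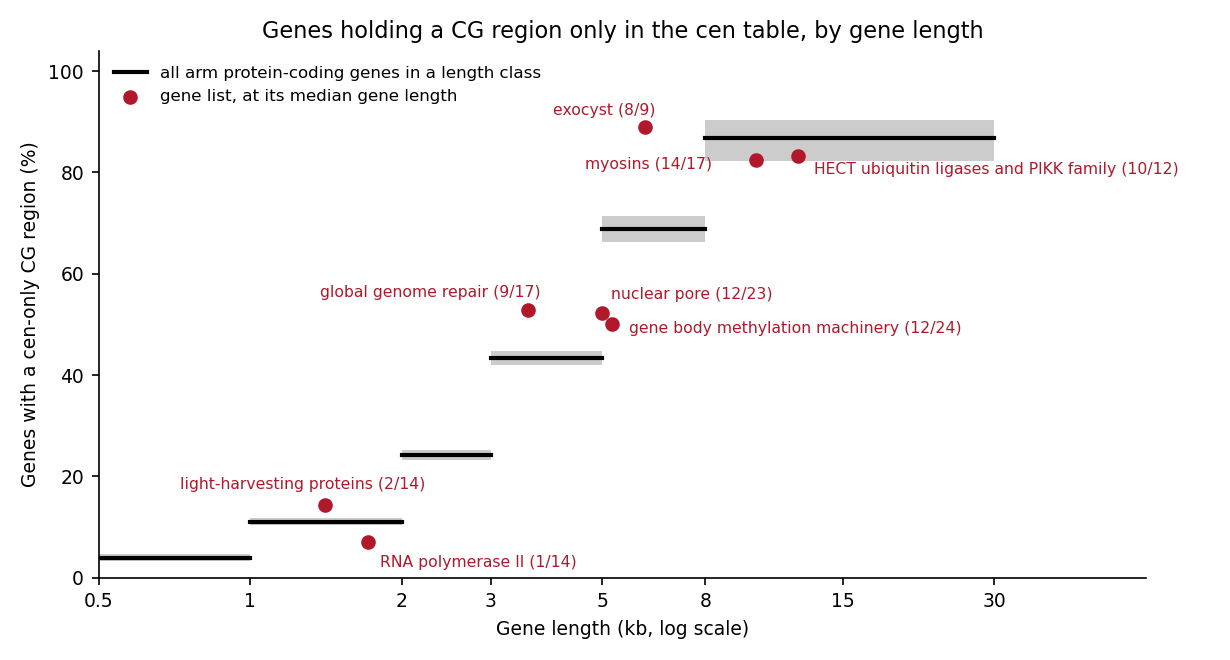
Share of genes holding a cen-only CG region in % against gene length in kb on a log axis. Black lines are all arm protein-coding genes in 6 length classes with 95% Wilson intervals in grey, and red points are the 8 gene lists at their median length with counts; the share is 3.91% below 1 kb and 86.8% at 8 kb or more. A list holds genes of several lengths, so its point need not lie on the line at its median; the exocyst point (88.9%) lies above the line of the 5 to 8 kb class (68.8%) and the repair point (52.9%) above that of the 3 to 5 kb class (43.3%).

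Few cen-only regions stood beside a change in another cytosine context, and those that did were mostly outside protein-coding genes. Within 200 bp, 239 regions (2.57%, 2.27 to 2.91) had a CHG region and 152 (1.63%, 1.4 to 1.91) a CHH region of the cen tables. For cen regions with a ddb2-3 region within 200 bp the shares were 1.68% (1.49 to 1.9) and 0.654% (0.54 to 0.793). For ddb2-3-only regions, against the CHG and CHH tables of ddb2-3, they were 2.52% (2.19 to 2.9) and 2.06% (1.76 to 2.4). A CHG region stood beside 20.6% (16.2 to 25.9) of the cen-only regions in pseudogenes and 9.6% (7.56 to 12.1) of those within 1 kb of a protein-coding gene, against 0.854% (0.675 to 1.08) of those in protein-coding genes. CHH regions stood beside 10.1% (7.97 to 12.6) of those within 1 kb of such a gene and 0.239% of those inside one.

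Where contexts overlapped they went the same way. Of 132 cen-only regions that shared a base with a cen CHG region 131 had the direction of that region, and 105 were higher and 27 lower in cen. Of 44 that shared a base with a cen CHH region 39 did, with 28 higher and 16 lower. The widest place with both lay within 1 kb of DMS11, which encodes the silencing factor MORC6. In the authors' deposited tables, chromosome 1 from 6594001 to 6594200 was lower in cen by 0.663 for CG, with overlapping CHG and CHH regions lower by 0.274 and 0.232. The authors' deposited tables also gave chromosome 1 from 23693601 to 23693800, which has no gene within 1 kb, as higher in cen by 0.641 for CG, with 0.342 for CHG and 0.113 for CHH.

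Other places of this kind were near AT1G50060, lower by 0.756 in CG and 0.360 in CHG, in the pseudogene AT1G49060, higher by 0.683 and 0.198, and near ENODL3 and AT4G28360, higher by 0.650 and 0.235, in the authors' deposited tables. With CHH, they were near AT2G27930, higher by 0.655 in CG and 0.198 in CHH, near AT5G24215, lower by 0.537 and 0.183, and in AT3G49230, lower by 0.513 and 0.146, in the authors' deposited tables. Of the 5 widest places named for each context, AT3G49230 was the only one inside a protein-coding gene.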

How the data were processed

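The authors deposited tables of differentially methylated regions, 1 per comparison and context, and the CG, CHG and CHH tables of cen and ddb2-3 were used. Each value is a difference between methylation levels (fractions) of 2 lines, from -1 to 1, as the authors deposited it; the smallest CG value for cen was 0.100 in absolute size. The submitters' processing notes name Bismark with Bowtie2 (2.0) and TAIR10, and Trim Galore, cutadapt and FastQC. Not given in the sources used here are the region caller, its test, threshold and coverage minimum. The cen tables name no labelled sample and were used as the authors' comparison only.

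The members and gene lists were chosen with earlier results of these data known. Distances are between coordinates. Regions were placed by midpoint in genes of the RefSeq table of TAIR10.1, used for names, lengths and neighbourhood; transcribed pseudogenes counted as pseudogenes, and 101 members counted in more than 1 gene. All 142 listed genes were found. The share of all arm genes of a list's length classes was added after the data were seen. Named were the 10 widest regions per direction, the 10 genes with most members, 5 genes per direction with members of that direction alone, the 5 widest regions overlapping CHG and CHH, and list genes. Distance, rule, placement and interval steps were checked on simulated data. Software was NumPy 2.4.6, pandas 2.3.3, Python 3.11.15 with SciPy 1.17.1, and matplotlib 3.10.9 for plots.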

Additional observations from a re-analysis of the deposited data

How the results depend on the processing

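The number of cen-only regions was 5430 with differences of 0.2 or more, 2746 with 0.3 or more, and 4513 with no ddb2-3 row within 1000 bp. The share higher in cen was 53.3%, 49.5% and 62.8% under the same 3 settings, so that at 0.3 or more the excess of higher regions was gone. The share in protein-coding genes was 89%, 90% and 77.6% there, 87.9% with 1 shared bp as the limit, 81.4% and 88% with pericentromeres of 2 and 4 Mb to each side, and 84.4% with 200 bp counted between regions, an alternative chosen after seeing the data. Sharing a base in place of 200 bp gave 1.42% for CHG and 0.473% for CHH. Genes with a member numbered 3809 at differences of 0.2 or more. Neighbours in a gene shared a direction at 52.3% once pairs within 200 bp were left out, also chosen after seeing the data. Counts stayed within 1.5 times and shares within their interval under single windows, no length limit and merging within 200 bp, which merged nothing. No paired analysis was possible because each line has 1 library and the tables hold no values per library. Depth per region is unknown, so regions resting on few reads cannot be told from others.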

Other observations

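Genes that held several cen-only CG regions and no ddb2-3 CG region were few. There were 384 arm protein-coding genes with 2 or more cen-only regions and no ddb2-3 region, of which 100 had higher regions alone and 50 lower regions alone. With 4 or more there were 15. These genes were picked after their values were seen. Apart from AT3G58640, the highest counts were 2 higher and 4 lower regions in AT1G74790, 2 and 3 in AT1G60200, and 1 and 4 in ABCG42, a gene of the ABC transporter family. NRPD2B, which resembles the second subunit of RNA polymerases IV and V, had 2 higher and 2 lower, LACS2, an acyl-CoA synthetase of cutin formation, 3 higher and 1 lower, and STIPL1, a spliceosome factor, 2 of each.

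All chromosomes showed more higher than lower cen-only regions, with shares higher in cen from 56.9% (55.1 to 58.8) on chromosome 1 to 61.5% (58.9 to 64) on chromosome 2. By distance from the chromosome centre, 62% (59.9 to 64.1) were higher at 3 to 5 Mb and 56.7% (54.7 to 58.6) beyond 11 Mb. Places without a ddb2-3 CG region could still be listed for ddb2-3 in another context: 40 cen-only regions shared a base with a ddb2-3 CHG region and 20 with a ddb2-3 CHH region.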
